A study of Mus musculus with 20 samples.

Results

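The major urinary protein genes (Mup) were followed in liver and gonadal fat of mice that lack normal protein kinase C epsilon (PKCε). The members described are Mup1, Mup2, Mup3, Mup20 and Mup21, 5 of the 21 symbols made of Mup and a number among 48440 gene rows. The family was chosen because Mup2 lay higher in liver of the mutant mice, so every Mup value from that contrast is a description with no test. All 21 symbols were also summed, because near-identical copies can share reads.

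All mice were on a C57BL/6 background, ate a diet rich in fat for 1 week and went without food for 6 h before the tissues were taken. Mice labelled AdEpsKO are called KO and their controls WT. What AdEpsKO stands for, and so in which cells Prkce was altered, is not stated in the labels. Each of the 4 groups (WT liver, KO liver, WT fat and KO fat) held 5 libraries, 1 per mouse, and the titles number livers and fat pads 1 to 5 within each genotype without saying that a number marks the same mouse.

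Major urinary proteins are small lipocalins, barrel-shaped proteins that hold hydrophobic molecules in a central pocket. The liver secretes most of them into the blood, and they pass through the kidney into urine, where they bind pheromones and release them slowly. Their genes form a cluster of tandem copies, many almost identical, and in most laboratory strains males make more of them than females, under control of growth hormone pulses, androgens and glucocorticoids.

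Prkce, the gene that encodes PKCε, ran from 8.85 to 14.5 counts per 1000000 counts (CPM) in KO liver and from 10.4 to 19.5 in WT liver. It ran from 23.5 to 35.6 CPM in KO fat and from 37.4 to 66.0 in WT fat, so the groups overlapped in liver and were separate in fat. Prkce passed the test in neither tissue (log2 difference -0.36, adjusted p 0.417 in liver, and -0.70, adjusted p 0.687 in fat, edgeR). Total counts ran from 13836370 to 20784145 per liver library and from 12880933 to 17276907 per fat library. The labels give no sex. Xist ran from 615 to 1675 CPM in liver and from 859 to 1642 in fat, and the 4 Y-linked genes Ddx3y, Eif2s3y, Kdm5d and Uty together had 0 to 2 counts in each liver library and 0 to 7 in each fat library. Alb was the checked hepatocyte marker and Adipoq the adipocyte one: Alb averaged 102464 CPM in WT liver and 134 in WT fat, and Adipoq 1.87 in WT liver and 3780 in WT fat.

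The 21 genes lie on chromosome 4 between 59956804 and 62150863 in GRCm38, a stretch of 2.19 Mb, and all 5 members are protein-coding genes on the minus strand. Mup2 (ENSMUSG00000078688) is annotated at chr4:60135932-60154289 and Mup1 (ENSMUSG00000078683) at chr4:60498012-60501960, among the near-identical copies. Mup20 (ENSMUSG00000078672, chr4:62050234-62054158), Mup3 (ENSMUSG00000066154, chr4:62083476-62087342) and Mup21 (ENSMUSG00000066153, chr4:62147932-62150863) lie at the far end of the cluster. Mup20 encodes darcin, a male urinary protein that attracts females.

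The coding sequences show how far the members can be told apart. Mup2 differed from its closest copy, Mup11, at 1 of 540 aligned coding bases, and Mup1 from Mup11 at 2 of 540. Mup3 and Mup21 were each other's closest copy, with 20 of 543 bases different. Mup20 stood farthest from its closest copy, Mup5, with 45 of 540 bases different. The same 90 bases of coding exon 2 are shown for 5 genes, because 1 stretch of this kind separates Mup3, Mup20 and Mup21 from the copies but not the copies from each other. It was picked as the 90 bases within 1 exon at which the 5 members vary most. Capitals mark bases that differ from Mup2. The stretch lies at chr4:60139259-60139348 for Mup2 and chr4:62086840-62086929 for Mup3, minus strand, GRCm38.
Mup2: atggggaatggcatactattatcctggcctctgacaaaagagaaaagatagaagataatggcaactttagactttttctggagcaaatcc
Mup17: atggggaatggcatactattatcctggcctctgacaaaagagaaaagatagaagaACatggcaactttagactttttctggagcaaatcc
Mup20: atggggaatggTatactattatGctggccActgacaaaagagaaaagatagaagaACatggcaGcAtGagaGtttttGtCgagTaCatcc
Mup3: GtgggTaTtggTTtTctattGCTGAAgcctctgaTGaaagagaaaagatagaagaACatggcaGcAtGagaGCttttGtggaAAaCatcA
Mup21: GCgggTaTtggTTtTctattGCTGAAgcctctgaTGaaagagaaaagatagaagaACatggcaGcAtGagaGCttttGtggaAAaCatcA
The stretch was identical in Mup1, Mup2, Mup10 and Mup15. Mup17 differed from Mup2 at 2 of the 90 bases, Mup20 at 13, Mup3 at 26 and Mup21 at 27.

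The share of a gene's sequence found in no other gene followed the same split. Of the stretches of 50 bases in the transcripts of Mup3, 86.7% were found in no other gene, as were 80.7% of those of Mup21 and 49.5% of those of Mup20. The share was 38.4% for Mup1 and 21.8% for Mup2. It was 0% for Mup15 and for Mup19, which nevertheless hold 10387 and 1121 counts over the 10 liver libraries. At 100 bases the share was 24.5% for Mup2, 2.66% for Mup15 and 0% for Mup19. The length of the reads is not known from the labels. Every one of the 420 values of the Mup genes (21 genes in 20 libraries) was whole within 1e-06, whereas 21.51% of the 14985 genes with a mean of at least 10 counts had at least 1 value that was not whole. The labels do not say how reads that match several copies were counted, so the split of counts among Mup1, Mup2 and Mup7 to Mup19 is uncertain. Mup3, Mup20 and Mup21 rest on more sequence of their own.

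**Figure D1:**
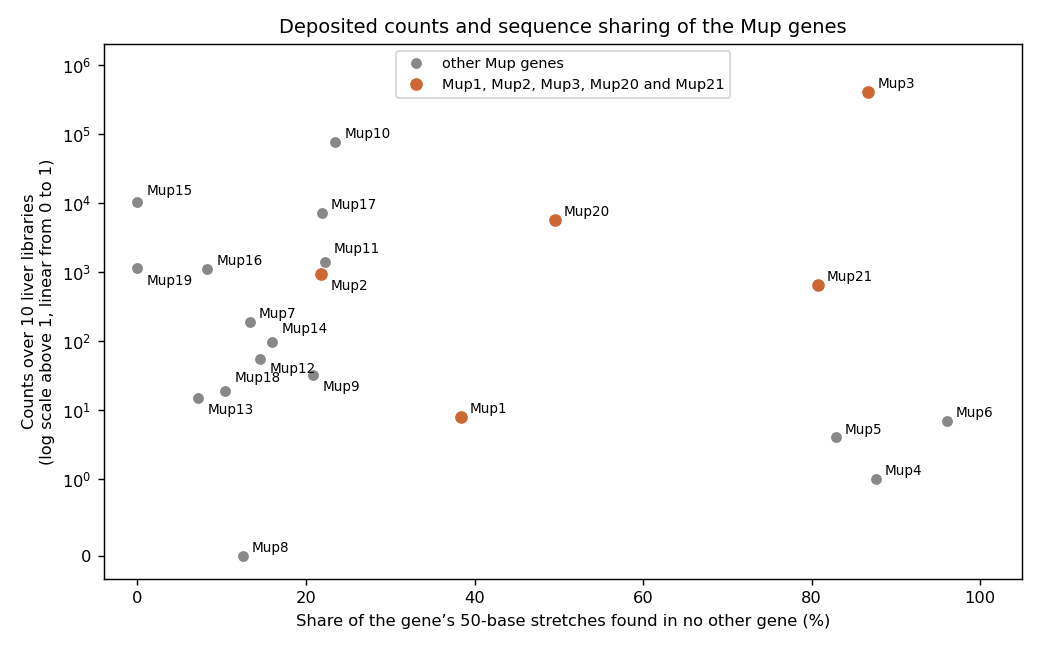
Counts over the 10 liver libraries (y axis, log scale above 1) against the share of each gene's 50-base stretches found in no other gene (x axis, percent), 1 point per Mup gene. Mup3 stands at 86.7% with 404884 counts, whereas Mup15 and Mup19 stand at 0% with 10387 and 1121 counts.

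Upstream sequence was compared because several copies moved together across livers. RefSeq's table of sequences before gene starts (GRCm38.p6) held 14 of the Mup genes, Mup1 and Mup20 not among them. The 250 bases before the RefSeq start are shown for Mup2, for Mup15 as a gene that varied widely between livers, and for Mup3 as the most abundant. They lie at chr4:60139857-60140106, chr4:61439705-61439954 and chr4:62087318-62087567, minus strand. RefSeq and GENCODE starts differ: the Mup2 stretch lies inside the GENCODE gene, and those of Mup15 and Mup3 overlap the starts of theirs. Capitals mark ATCAAT, core letters of the motif of the liver factor ONECUT1.
Mup2: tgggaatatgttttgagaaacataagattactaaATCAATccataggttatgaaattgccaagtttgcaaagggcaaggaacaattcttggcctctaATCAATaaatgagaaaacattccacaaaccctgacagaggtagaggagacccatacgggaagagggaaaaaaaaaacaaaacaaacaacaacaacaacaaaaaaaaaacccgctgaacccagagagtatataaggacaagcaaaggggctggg
Mup15: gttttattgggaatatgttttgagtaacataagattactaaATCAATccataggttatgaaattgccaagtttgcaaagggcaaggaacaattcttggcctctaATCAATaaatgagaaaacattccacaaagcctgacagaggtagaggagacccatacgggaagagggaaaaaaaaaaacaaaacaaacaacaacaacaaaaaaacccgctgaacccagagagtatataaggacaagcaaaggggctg
Mup3: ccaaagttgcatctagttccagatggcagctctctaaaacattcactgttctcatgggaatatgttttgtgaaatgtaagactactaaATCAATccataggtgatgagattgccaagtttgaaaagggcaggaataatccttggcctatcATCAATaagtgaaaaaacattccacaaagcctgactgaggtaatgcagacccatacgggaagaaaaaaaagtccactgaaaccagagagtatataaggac
ATCAAT occurred in 14 of 14 Mup sequences, against 6.72% of 32851 sequences of the same length, counting both strands. The Mup sequences descend from shared duplications and are not independent. TATAAA was found in 2 of the 14 (12.4% of all), and TTCNNNGAA, a STAT element, in 0 (7.02% of all). The sequences shown each hold tatataagg near their end, which the exact letters TATAAA do not match. TTGNNCAA, a C/EBP core, and CAAAGTCCA, an HNF4 core, were each found in 0, against 5.65% and 0.384% of all. The palindrome of glucocorticoid and androgen receptors was found in 0, against 0.00913% of all. In the 2 sequences that held both, ATCAAT and TATAAA did not overlap. A match is a description of letters only.

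Mup3 held most of the family's counts in liver. It gave 404884 of the counts over the 10 liver libraries, 79.3% of the family's total, and between 72.9% and 85.6% in each library. Mup10 followed with 15.0%, Mup15 with 2.04%, Mup17 with 1.42% and Mup20 with 1.12%, and Mup2 held 0.183%. The family took 0.191% to 0.515% of the counts of a liver library, and Mup3 ranked between 29 and 72 among all genes in a library. Mup1 had 8 counts over 5 of the 10 livers. Mup8 had 0 counts, which allows up to 3 counts over the 10 libraries for counting error only.

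Per kb of exon, the order of levels over the 10 livers was Mup3, Mup10, Mup15, Mup17, Mup20, Mup16, Mup19, Mup21, Mup11, Mup2 and Mup7, among the 11 genes that passed the filter on low counts. Mup3 averaged 2172 ± 596 CPM per kb and Mup10 312 ± 132 (SD, n = 10), and every library had more Mup3 than Mup10. Mup20 averaged 37.0 ± 21.1 CPM per kb and stood above Mup16, the next in order, in 10 of 10 livers with ranges apart. Mup17 and Mup20 overlapped, and Mup17 was the higher of the pair in 3 of 10 livers. Mup16, Mup19, Mup21, Mup11 and Mup2 averaged between 3.95 and 5.91 CPM per kb, with overlapping ranges between neighbours in the order.

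**Figure D2:**
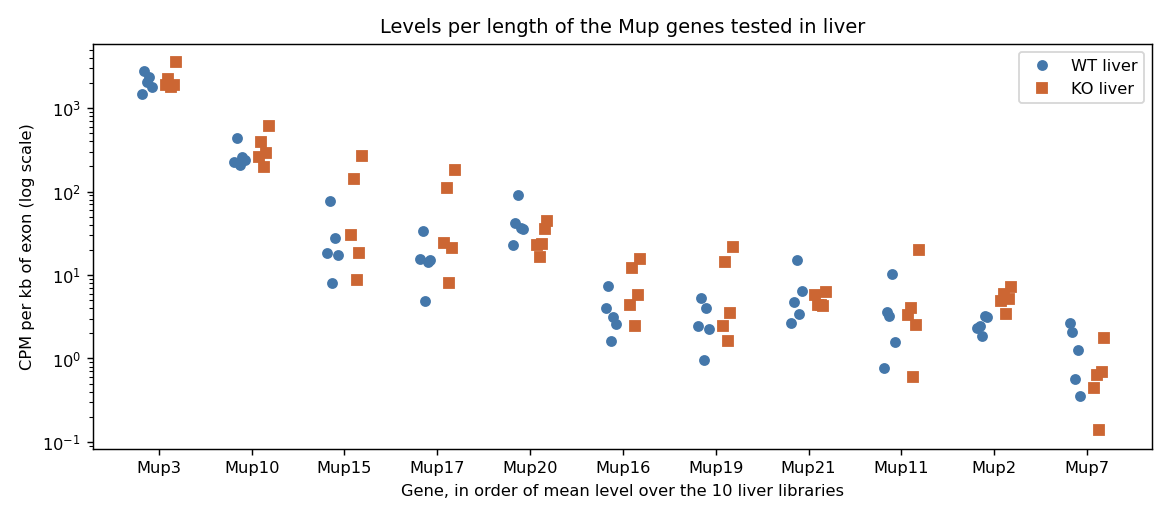
Level per kb of exon in CPM (y axis, log scale) of the 11 Mup genes tested in liver, in order of their mean (x axis), with 1 point per library, circles for WT and squares for KO. Mup3 lies above the other genes in each library, and Mup7, Mup11, Mup15, Mup17 and Mup19 spread over more than 10-fold.

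Mup2, the gene that chose the family, encodes a urinary protein of the near-identical class. It stood at 3.12, 3.29, 2.48, 4.32 and 4.20 CPM in the 5 WT livers and at 6.43, 7.94, 4.60, 6.81 and 9.60 in the 5 KO livers. Each KO library exceeded each WT library, and the closest were 4.60 and 4.32 CPM. The means were 7.08 ± 1.85 in KO and 3.48 ± 0.771 in WT liver (SD, n = 5 each), a ratio of 2.03. Of 13298 genes tested in liver, 201 (1.51%) showed this separation with KO on top, and nothing is read from the place of Mup2 among them, since that contrast chose it. The values rest on 34 to 182 counts per library. In bulk tissue, fewer cells of a type and less RNA per cell cannot be told apart.

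Mup3, the most abundant member, stood at 1571, 2956, 2174, 2542 and 1903 CPM in WT livers and at 1991, 2362, 1909, 2027 and 3758 in KO livers. The groups overlapped, and the highest library was KO liver 5. The means were 2409 ± 774 in KO and 2229 ± 540 in WT liver (SD, n = 5 each), a ratio of 1.08. Without KO liver 5 the fitted log2 difference turned from 0.11 to -0.11.

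Mup20 had 21.2, 38.5, 84.7, 34.1 and 32.8 CPM in WT livers and 21.02, 15.4, 21.6, 33.3 and 40.8 in KO livers. WT liver 3 lay far above the other 9 libraries, which overlapped. The means were 26.4 ± 10.3 in KO and 42.3 ± 24.6 in WT liver (SD, n = 5 each), a ratio of 0.625. Without WT liver 3 the log2 difference shrank from -0.68 to -0.26.

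Mup21 encodes a more distant lipocalin of the cluster and was low, with 1.79, 3.18, 10.4, 2.33 and 4.32 CPM in WT livers and 3.90, 2.96, 2.94, 2.86 and 4.22 in KO livers. WT liver 3 was again the highest library, and the groups overlapped. The ratio of the means was 0.768. Without WT liver 3 the log2 difference turned from -0.36 to 0.22.

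Mup1 had at most 0.162 CPM in any liver (3 counts, in WT liver 2) and did not pass the filter on low counts. The other 4 members passed it in liver.

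The sum of all 21 genes followed Mup3. It stood at 1955, 3741, 2579, 3005 and 2319 CPM in WT livers and at 2450, 3204, 2228, 2523 and 5153 in KO livers. The groups overlapped, with KO liver 5 highest and WT liver 1 lowest. The means were 3112 ± 1198 in KO and 2720 ± 687 in WT liver (SD, n = 5 each), a ratio of 1.14. Without KO liver 5 the log2 difference of the sum turned from 0.19 to -0.06. The 27 Mup pseudogenes together held 0.438 to 3.90 CPM in each liver. Of the 11 Mup genes tested in liver, 8 had a higher mean in KO and 3 (Mup7, Mup20 and Mup21) a lower one. The median log2 difference over all genes was 0.00. Several of the 8 share sequence and vary together, so they are not independent. Mup2, which chose the family, alone had KO and WT libraries apart, beside 201 of 13298 genes (1.51%) with KO on top.

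**Figure D3:**
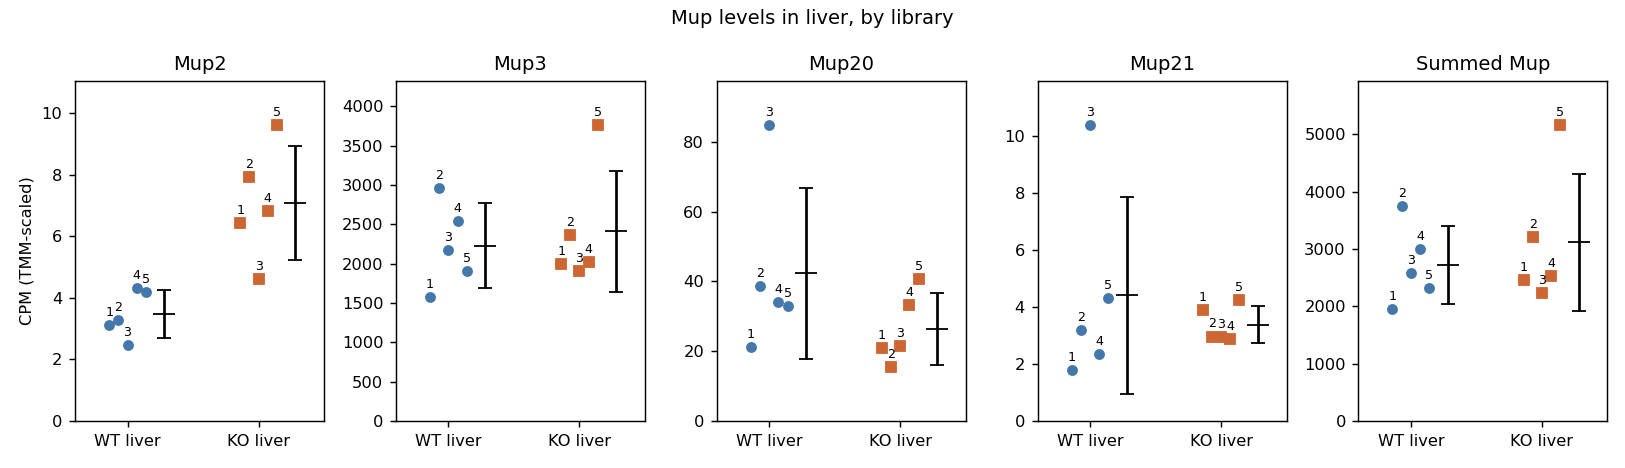
CPM (y axis, linear from 0, each panel with its own scale) of Mup2, Mup3, Mup20, Mup21 and the sum of all Mup genes in WT (circles) and KO (squares) livers. Points are libraries with their replicate number, and the bar is the mean with its SD (n = 5). Mup2 shows 5 KO points above 5 WT points, and the other panels overlap.

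Across all genes, edgeR called 1 of 13298 genes between KO and WT liver (0.00752%), the antisense transcript Hectd2os, which lies outside the naming rule and was named after its value was seen. None of the 11 Mup genes was among the calls of edgeR. An unadjusted p under 0.05 (edgeR) was held by 1745 of the 13298 genes and by 1 of the 11 Mup genes (Mup2). DESeq2 called Mup2 among 138 genes. With every gene that had any count in the test, edgeR called 15 genes, Mup2 among them at an adjusted p of 0.0331. These counts are given beside the background and nothing is read from them, because Mup2 was selected on this contrast.

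The livers of 1 genotype differed widely in the near-identical copies. Mup15 had 17.0, 71.1, 7.51, 25.5 and 16.2 CPM in WT livers and 27.8, 131, 8.01, 16.7 and 246 in KO livers. The highest library held 32.8 times the lowest. The high livers were KO 5, KO 2 and WT 2, and the low ones WT 3 and KO 3. Mup17 spanned 4.52 to 167 CPM, a 36.9-fold range, with the same livers at both ends. Mup19 spanned 1.02 to 22.96 CPM, Mup16 1.68 to 16.3 and Mup11 0.948 to 31.4. By comparison Mup3 spanned a 2.39-fold range over the same libraries and Mup10 a 3.16-fold range. The ratios of the KO to the WT mean were 3.13 for Mup15 and 4.13 for Mup17, with overlapping groups. Without KO liver 5 the log2 difference of Mup15 went from 1.64 to 0.73.

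Of these copies, 5 varied together most closely from liver to liver, and they are grouped after their values were seen. Among Mup10, Mup15, Mup16, Mup17 and Mup19, the 10 pairs had Pearson correlations of log2 CPM between 0.916 and 0.971 over the 10 livers, and between 0.915 and 0.981 after the mean of each genotype was removed. Other genes of the near-identical class followed them less closely: over all livers the correlations with these 5 ran from 0.541 to 0.709 for Mup11, from 0.594 to 0.782 for Mup2 and from 0.393 to 0.524 for Mup7. With genotype means removed, they ran from 0.564 to 0.712 for Mup11, 0.680 to 0.812 for Mup2 and 0.711 to 0.833 for Mup7. The correlations of the 5 genes with Mup20 and Mup21 ran from -0.328 to 0.001 over all livers. Mup20 and Mup21 correlated with each other at 0.73, and Mup3 with Mup10 at 0.85. These correlations are a description: the points share library depth, and the copies share sequence, so reads of one may be counted for another.

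**Figure D4:**
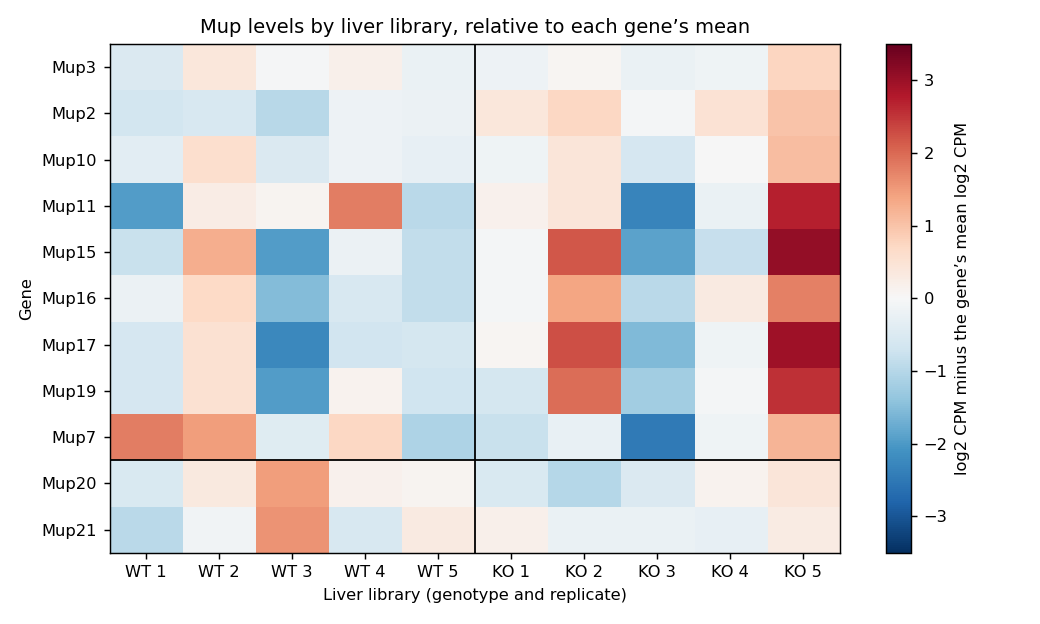
Log2 CPM of 11 Mup genes (rows) in the 10 liver libraries (columns), each minus the gene's own mean, from blue (lower) to red (higher). Mup15, Mup17 and Mup19 are highest in KO 5 and KO 2 and low in WT 3 and KO 3, whereas Mup20 and Mup21 below the line are highest in WT 3, at 1.47 and 1.58.

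Outside the family, 12363 genes averaging 1 CPM or more in liver were ranked by the correlation of their log2 CPM with that of the Mup sum over the 10 livers. The 10 most alike were Gm6135 (0.949), Ugt2b37 (0.947), Gm43672 (0.944), Sult3a1 (0.932), Hdac2 (0.914), Pspc1 (0.913), Csrp3 (0.913), Wbp4 (0.908), Ccdc25 (0.908) and Xpo5 (0.900). Ugt2b37 encodes a glucuronosyltransferase and Sult3a1 a sulfotransferase of the liver. These are the highest of many correlations over 10 points and a description of these livers.

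Genes that sense or carry the growth hormone signal were followed in liver from a list that also holds its targets. Of its 14 members, all tested, 7 were higher and 7 lower in KO by the fitted value and 0 were called. The median log2 difference was 0.00, as over all genes (0.00). Ghr, the growth hormone receptor, averaged 572 ± 77.0 CPM in KO and 505 ± 57.9 in WT liver. Stat5b, the transcription factor that carries the signal to sex-biased liver genes, averaged 68.8 ± 11.6 and 61.6 ± 10.3 CPM. Socs2 and Cish, feedback inhibitors induced by STAT5, averaged 34.5 ± 17.8 against 63.7 ± 35.5 CPM and 27.9 ± 8.16 against 47.9 ± 23.9 CPM. All these differences missed the threshold, with ratios of 0.543 (95% interval 0.261 to 1.13) for Socs2 and 0.583 (0.333 to 1.02) for Cish and adjusted p 0.453 and 0.390 (edgeR).

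Transcription factors tied to Mup or to sex-biased liver genes gave 0 calls of 18 tested, with 11 lower and 7 higher in KO, and the median log2 difference was -0.05. Zhx2, a repressor of several liver genes, averaged 14.5 ± 1.73 CPM in KO and 17.9 ± 1.12 in WT liver (SD, n = 5 each), with adjusted p 0.254 (edgeR). Onecut1 averaged 42.7 ± 29.9 and 70.6 ± 40.2 CPM, and Zbtb20, a hepatocyte zinc finger factor, 187 ± 23.9 and 149 ± 36.7.

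Other male-biased liver genes did not pass the test either. Of 26 listed, 25 were in the table and 19 were tested, with 7 higher and 12 lower in KO (median -0.08 on the log2 scale) and 0 calls. Slco1a1, an organic anion transporter, stood at 2.66, 178, 383, 153 and 29.1 CPM in WT livers and at 42.7, 106, 18.3, 29.01 and 305 in KO livers. WT liver 3 and KO liver 5 were the highest of the 10. Selenbp2, a selenium-binding protein gene, was also highest in WT liver 3, at 124 CPM, and second was KO liver 5, at 49.3. The rest of the first 6 tested genes of the list were mixed. Hsd3b5 was highest in the same livers, at 12.4 CPM in KO 5 and 7.95 in WT 3. Cyp2d9 was highest in KO liver 4, at 101 CPM, with 41.3 in WT 3 and 38.1 in KO 5. Cyp7b1 and Elovl3 were highest in KO liver 5, at 30.3 and 4.59 CPM, but had 16.9 and 0.875 in WT liver 3. Of 30 female-biased genes, all tested, 23 were higher and 7 lower in KO (median 0.28 on the log2 scale), with 0 calls. Cyp2b9, a cytochrome P450 of female liver, averaged 744 ± 51.6 CPM in KO and 609 ± 125 in WT liver, and Cyp3a41a, another, 166 ± 90.1 and 95.7 ± 64.3.

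Other lipocalins and secreted liver proteins were set beside the Mup genes. Of 23 lipocalins listed, 10 were tested, 2 higher and 8 lower in KO (median -0.26 on the log2 scale), with 0 calls. Rbp4, which carries retinol in blood, averaged 2236 ± 169 CPM in KO and 2648 ± 133 in WT liver, a ratio of 0.844 (95% interval 0.731 to 0.975, adjusted p 0.317, edgeR). Of 26 secreted liver proteins, all tested, 25 were lower in KO and 1 higher, with a median of -0.22 and 0 calls. Apoa1, the main protein of high-density lipoprotein, averaged 4025 ± 427 CPM in KO and 7252 ± 2858 in WT liver (adjusted p 0.211, edgeR). Genes under insulin and glucose control gave 9 higher and 7 lower of 16, a median of 0.08 and 0 calls. Of the 10 protein-coding genes beside the cluster, 9 were tested, with 8 higher and 1 lower, a median of 0.06 and 0 calls.

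Markers of other cells moved with some of these livers. The 6 skeletal muscle markers summed to 0.800 to 175 CPM in WT livers and 0.399 to 19.1 in KO livers, with all 4 tested members lower in KO, and the 6 macrophage markers were all lower in KO, summing to 318 to 618 CPM in WT and 324 to 389 in KO livers. None of these 10 was called. The part of macrophage transcripts in the Mup values was not tested. The log2 difference of Mup2 was 1.02 with all libraries and 1.11 without the pair of WT livers richest in muscle transcripts. For the Mup sum it was 0.19 and 0.45.

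Mup transcripts were far lower in fat, the reference tissue. The family took 0.00201% to 0.00727% of the counts of a fat library, and only Mup3 and Mup10, 2 of the 21 genes and 1 of the 5 members, passed the filter there. Between WT liver and WT fat, edgeR called 5284 of 14739 genes (35.9%) higher in liver. Mup3 and Mup10 were among them. The 8 other Mup genes tested passed the filter there through the liver libraries alone, so that they were called higher in liver is no support, and their values are a description. Mup3 averaged 2229 ± 540 CPM in WT liver and 16.7 ± 8.57 in WT fat (SD, n = 5 each), and the libraries did not overlap. The fitted log2 difference was 7.98 (adjusted p 1.72e-08, edgeR), with a 95% interval of 126 to 506 for the ratio. Without TMM scaling, the pooled counts of the 5 libraries gave a ratio of 134, near the low end of that interval, so the size depends on the scaling. For Mup10 the fitted ratio was 57.1 (31.8 to 102) and the pooled ratio 30.5, and for Mup20 they were 618 (248 to 1540) and 343. Mup2 had 280 counts over the 5 WT livers and 0 over the 5 WT fat pads. Against the 3 counts that a count of 0 allows over the group, it was at least 88.1-fold higher in liver. For the summed family the fitted ratio was 168 (88.1 to 322).

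Whether the genotype groups differed in fat was tested, since the fat libraries did not choose the members. Mup3 had 25.6, 10.5, 8.94, 26.4 and 12.1 CPM in WT fat and 16.6, 11.4, 39.4, 11.2 and 61.05 in KO fat. KO fat 5 and KO fat 3 were the highest, and the groups overlapped. The ratio was 1.67 (95% interval 0.736 to 3.79) with adjusted p 0.770 (edgeR), and the exact two-sided permutation p of log2 CPM was 0.389, where 5 against 5 libraries can reach 0.00794. Without KO fat 5 the log2 difference fell from 0.74 to 0.23.

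Mup10, counted as the main near-identical copy, had 9.08, 9.74, 9.36, 25.2 and 9.96 CPM in WT fat and 13.4, 13.8, 15.3, 10.6 and 8.86 in KO fat. WT fat 4 was the highest library. The ratio was 0.978 (95% interval 0.614 to 1.56) with adjusted p 0.990 (edgeR), and without WT fat 4 the log2 difference went from -0.03 to 0.38. The sum of the family had 35.3, 21.1, 18.9, 55.2 and 22.4 CPM in WT fat and 31.8, 26.4, 68.7, 23.2 and 70.6 in KO fat. Its ratio was 1.44 (0.774 to 2.69) with adjusted p 0.782 (edgeR) and an exact permutation p of 0.286. Of 14707 genes tested in fat, edgeR called 0 (0%), 1048 had an unadjusted p under 0.05, and DESeq2 called 16, none of them a Mup gene.

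Hepatocyte transcripts differed between the fat libraries. WT fat 4 and KO fat 3 had 468 and 415 CPM of Alb, and the other 8 had 12.9 to 73.9. Mup3 was not in the proportion to Alb seen in liver: it had 16.3 to 45.8 counts per 1000 Alb counts in the 10 livers and 56.4 to 1305 in the 10 fat pads. Mup10 had 2.47 to 10.4 per 1000 Alb counts in liver and 37.0 to 726 in fat. At the median ratio of liver, the Alb counts of a fat library would go with 1.70% to 39.4% of its Mup3 counts. Markers of other tissues also differed between fat libraries. The 4 bladder epithelium markers summed to 1523 CPM in KO fat 2 and to at most 27.1 in each WT fat library. The 6 skeletal muscle markers summed to 14.9 to 690 CPM in WT fat and 16.5 to 530 in KO fat. KO fat 2 had 11.4 CPM of Mup3 and 13.8 of Mup10, within the range of the others, and the part of these tissues in the Mup values was not tested. The 4 epididymis markers together stayed at or under 0.388 CPM in each fat library. KO fat 5 had the most Mup3 of the fat libraries (758 counts) with 581 counts of Alb.

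Mup20 and Mup7 stood out in 1 fat library. KO fat 3 had 84 counts of Mup20 and 76 of Mup7, whereas the other 9 fat libraries had 0 to 6 and 0 to 2. Per 1000 Alb counts, KO fat 3 had 14.9 of Mup20 and 13.5 of Mup7, against 0.20 to 0.732 and 0.00145 to 0.0282 in the livers. The same library had 56 counts of the male-biased Cyp2d9 and 7 of the 4 Y-linked genes, against 0 to 6 and 0 to 3 in the other fat libraries. Of the female-biased genes looked at, it had 0 counts of Cyp2a4 and Cyp3a41a and 16 of Cyp2b9. WT fat 4, the other library with much Alb, had 90, 16 and 74 counts of them, and the other 8 fat libraries had 0 to 6 of Cyp2b9. The part of other material in these values was not tested.

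**Figure D5:**
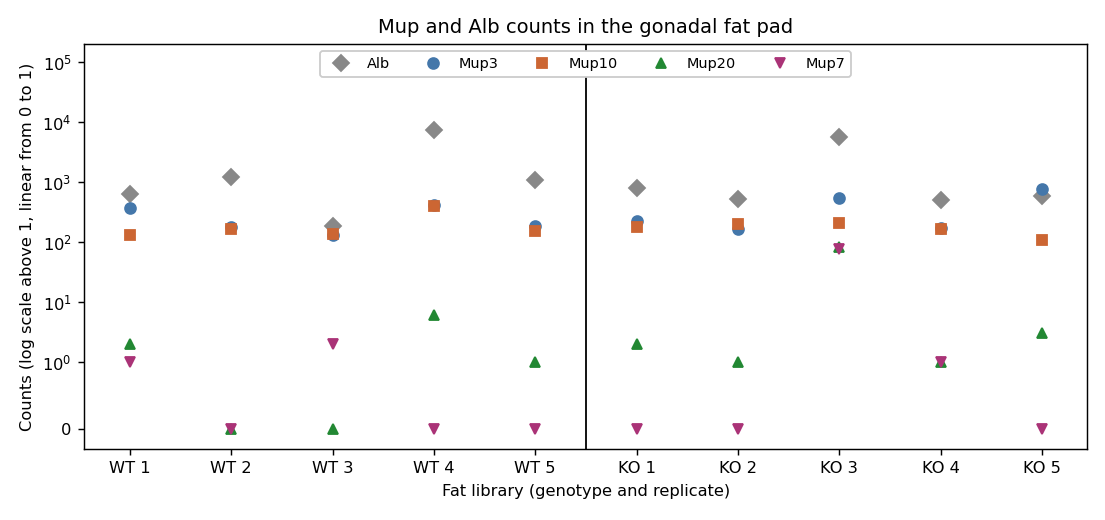
Counts (y axis, log scale above 1 and linear from 0 to 1) of Alb, Mup3, Mup10, Mup20 and Mup7 in the 10 fat libraries (x axis). Mup3 and Mup10 are present in each library, and Mup20 (84) and Mup7 (76) stand out in KO 3.

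The interaction of genotype and tissue holds the liver contrast that chose the members, so it is given as a description. Over 15652 genes edgeR called 0 (0%), 839 had an unadjusted p under 0.05 and DESeq2 called 2, and 0 of the 11 Mup genes were called by either tool. The log2 difference, liver minus fat, was -0.62 for Mup3, 0.38 for Mup10 and -0.33 for the summed family. Mup20 and Mup7 had unadjusted p under 0.05 there, from which nothing is read, and 84 of the 100 fat counts of Mup20 and 76 of the 80 of Mup7 came from KO fat 3.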

How the data were processed

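Libraries came from RNA purified on Qiagen RNeasy columns, with a TruSeq Stranded mRNA kit, per the labels' protocols. GRCm38 is the build in the submitters' processing notes, which also list STAR 2.4.0d, RSEM 1.2.12, Trim Galore 0.2.8 and DESeq2 in no stated order. Which annotation release and strand setting were used is not stated in the labels. The values the authors deposited are expected counts per gene, not normalized, and were rounded here (between 3.95% and 5.8% of the values of a library were not whole).

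Symbols and coordinates came from GENCODE M21. In each tissue, genes passing filterByExpr (minimum count 10, minimum total 15) were scaled by TMM and fitted with the quasi-likelihood test of edgeR 4.0.16 (limma 3.58.1 and R 4.3.3, robust), and p-values were adjusted by Benjamini-Hochberg over all genes at 0.05. CPM used TMM-scaled library sizes within each tissue, and Prkce and the summed marker levels used plain library sizes. Log2 CPM had a prior count of 2. The steps were tested on simulated counts. Coding sequences were compared in pairs by global alignment in Biopython 1.88, and the stretch of 90 bases was taken from an alignment by MAFFT 7.526. Low genes are measured least precisely at this depth, and the SD over 5 libraries holds counting error as well as differences between mice.

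The members and the lists were chosen with earlier results of these data known. Named genes are the members, the other Mup symbols, the first 6 tested genes of each list, the 10 genes most alike to the Mup sum and the genes beside the cluster. Cyp2a4, a later member of its list, and Hectd2os were added after their values were seen. Mup22 has no row in the table and was not analysed here. Alternatives were RLE and upper quartile scaling, DESeq2 1.42.0, other filters, scaling without the Mup genes, other sums, all 20 libraries in 1 fit, a replicate block and each library left out. Leaving out the pairs of libraries rich in hepatocyte or in muscle transcripts was chosen after seeing the data.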

Additional observations from a re-analysis of the deposited data

Results flagged for a closer look

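In groups of 5 libraries, a value is listed here when its gap to the nearest other library exceeded 0.71 of the group's range. Of 34 groups of values examined, 9 met this. Many of the genes vary together and the sum holds them, so the groups are not independent and no chance rate is set beside this. In fat, Mup20 and Mup7 were examined although they did not pass the filter there, so their flags in fat are a description. The 9 flagged values concern 4 livers and 2 fat pads.

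KO liver 5 stood apart for Mup3, with 3758 CPM against 1909 to 2362 in the other KO livers, and for Mup11, with 31.4 CPM against 0.948 to 6.35. WT liver 2 stood apart for Mup10, with 615 CPM against 286 to 358, and for Mup15, with 71.1 CPM against 7.51 to 25.5. WT liver 3 stood apart for Mup20, with 84.7 CPM against 21.2 to 38.5. WT liver 4 stood apart for Mup11, with 16.4 CPM against 1.21 to 5.61.

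KO fat 3 stood apart for Mup20, with 6.17 CPM where the 4 remaining KO fat libraries had 0.0645 to 0.242, and for Mup7, with 5.58 CPM against 0 to 0.0645. WT fat 4 stood apart for Mup10, with 25.2 CPM against 9.08 to 9.96. No cause was tested for any of these values.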

How the results depend on the processing

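Of 383 values recomputed under an alternative, 364 stayed the same by the rule for their kind. A count of genes called had to lie within a fixed fold of the main count. A value with a test read had to keep its direction and its side of the threshold. Where no test was read, the change had to be smaller than the spread between libraries. In liver the count of genes called went from 1 to 15 with any expressed gene tested, 3 with the replicate block, 138 with DESeq2, 2 with all 20 libraries in 1 fit, 3 without the pair of livers rich in muscle transcripts and 0 to 3 with 1 library left out. It was 0 without WT liver 3 or without WT liver 5. DESeq2 called 16 genes in fat and 2 for the difference between tissues, where edgeR called 0. For Mup10 in fat, the log2 difference of -0.03 turned to 0.078 with the replicate block, 0.38 without WT fat replicate 4, 0.021 without KO fat replicate 4, 0.067 without KO fat replicate 5 and 0.29 without the pair of fat libraries rich in hepatocyte transcripts, with the threshold missed each time, and ran from -0.13 to 0.38 with 1 library left out; the cause was not tested. The log2 difference of Mup2 in liver ran from 1.00 to 1.11 over the other settings and from 0.88 to 1.14 with 1 library left out. With 1 library left out, that of the Mup sum ran from -0.06 to 0.34 in liver and from 0.29 to 0.85 in fat. In liver, those of Mup3, Mup11 and the sum turned negative without KO liver 5 (-0.11, -0.56 and -0.06), and that of Mup21 turned positive without WT liver 3 (0.22). By the rule for values with no test read, these turns are counted among the 364, as is Mup2 under DESeq2, which called it. Between WT liver and WT fat, 10947 genes were called in either direction. That count ran from 10537 to 12444 over the scalings, filters, tools and replicate block.

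The replicate numbers were not taken to pair the samples, since not every same-numbered pair correlated above 0.1. The correlations of their deviations ran from -0.227 to 0.251 for KO and WT liver. For KO and WT fat they were 0.341, 0.149 and 0.505 for numbers 1, 2 and 3, each higher than with the 4 other numbers, and -0.167 and -0.00246 for 4 and 5. Between liver and fat they ran from -0.0182 to 0.169 in WT and from -0.0131 to 0.0492 in KO. The replicate block changed no Mup call.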

Other observations

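Mup15 and Mup20 differed in the genes whose levels ran most closely with theirs over the 10 livers. These genes lie outside the naming rule and were named after their values were seen. Beside Mup20 stood Cmas (Pearson r of log2 CPM 0.941), Eif2ak3 (0.925) and Rbbp4 (0.921), and also Mug1, Cp and C8a, which encode proteins secreted into plasma (0.915, 0.899 and 0.897). Beside Mup15 stood Gm6135 (0.946), Gpatch11 (0.886), Slc25a45 (0.871) and Nt5e (0.851). Each list takes the highest of 12363 correlations over 10 points, so the values describe these livers only.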
